A study of Musca domestica with 16 samples.

Results

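CCT-delta, CCT-eta and CCT-zeta encode 3 subunits of the cytosolic chaperonin, and their messenger RNA levels were followed through heads and gonads of the house fly, Musca domestica. The members are the rows of the authors' deposited table with the gene IDs LOC101889634 (CCT-delta), LOC101887278 (CCT-eta) and LOC101899826 (CCT-zeta), which are 3 of its 14631 genes. All 3 had a value in every group, and all 3 were tested by the authors in every comparison. Messenger RNA came from unmated adults 4 to 6 days old, kept at 25 °C, of 2 strains that differ in the chromosome that carries the male determiner. Males of strain CS carry it on chromosome III and are called IIIM males, and males of strain CSaY carry it on the Y chromosome and are called YM males. The 16 libraries comprise 3 of IIIM male heads, 3 of YM male heads, 3 of IIIM testes, 3 of YM testes, and 1 for each strain of female heads and of ovaries. The authors' deposited table gives 1 FPKM (fragments mapped to a gene, scaled to its transcript length and to the depth of the library) for each of these 8 groups. No spread between the libraries of a male group can therefore be given. The gap between strains is given below, but it does not measure that spread.

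The chaperonin CCT, also called TRiC, is a large chamber of stacked rings in the cytosol of eukaryotes. Each ring is built from different but related subunits that stand in a fixed order, CCT-delta, CCT-eta and CCT-zeta among them. An unfolded protein enters the chamber, which closes on ATP binding and hydrolysis, and actin and tubulin are its best known clients. Tubulin is in demand both in nerve cells and in the long axonemes of sperm.

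Each gene lies alone at its locus, and no other gene of the table overlaps it. CCT-delta lies on chromosome I (scaffold NW_004764715, positions 118463 to 123907), CCT-eta on chromosome II (scaffold NW_004764783, positions 45339 to 56026) and CCT-zeta on chromosome III (scaffold NW_004767539, positions 26487 to 30630). These positions are those of the authors' table, and which assembly they refer to is not stated there. Each is the only house fly gene of its ortholog group in the table. The library labels were checked against tissue markers first. The egg patterning gene bcd stood at 252.5 and 249.7 FPKM in the CS and CSaY ovaries, at 1.96 and 0.577 FPKM in IIIM and YM testes, and was listed at 0 in all heads. The yolk protein gene yp3, also a gene of the fat body, was lower in CS and CSaY ovaries (108.9 and 27.7 FPKM) than in the female heads (346.7 and 1328 FPKM). It stood at 66.0 and 3.82 FPKM in IIIM and YM male heads and at 7.05 and 13.6 FPKM in IIIM and YM testes. The neuropeptide gene pdf stood between 40.9 and 87.3 FPKM in the 4 head groups and at 0.274 FPKM or less in testes, and was listed at 0 in ovaries. The sodium channel gene para-like stood between 18.2 and 56.2 FPKM in heads, at 10.96 and 9.46 FPKM in IIIM and YM testes and at 0.293 FPKM or less in ovaries. The acetylcholine receptor gene nAChRbeta3 was higher in IIIM and YM testes (68.7 and 122.1 FPKM) than in any head group (21.2 to 44.6 FPKM). In CS and CSaY ovaries it stood at 0.291 and 0.169 FPKM. Of these markers bcd and pdf thus followed the labels, and para-like was highest in heads but present in testes. The genes yp3 and nAChRbeta3 followed them only in part. In ovaries yp3 was above testes, but it was highest in female heads. In heads nAChRbeta3 was above ovaries, but it was highest in testes. No testis marker had a matching symbol, so that label was not checked. In bulk tissue, fewer cells of a type and less RNA per cell cannot be told apart.

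The subunit gene with the highest FPKM differed between the tissues. By FPKM, CCT-eta was the highest of the 3 in male heads, CCT-delta in testes and CCT-zeta in ovaries, in both strains. Which transcript is most abundant rests on FPKM being comparable between genes, which was not tested. CCT-delta was the lowest in all 4 head groups and in both ovaries, and the highest in both testes. In female heads the order of CCT-eta and CCT-zeta differed between the strains.

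CCT-delta is, in mammals, one of the subunits that contact actin. Its level was 61.2 FPKM in IIIM male heads, 69.6 FPKM in YM male heads, 43.4 FPKM in the CS female head library and 51.1 FPKM in the CSaY one. In gonads it was 357.4 FPKM in IIIM testes, 389.9 FPKM in YM testes, 252.7 FPKM in the CS ovary library and 235.8 FPKM in the CSaY one. Testes were therefore highest, then ovaries, then male heads, then female heads, and the values of no tissue overlapped those of another. The gap between strains was 1.07-fold in ovaries, 1.09-fold in testes, 1.14-fold in male heads and 1.18-fold in female heads. From lowest to highest group the level spanned 8.98-fold, a wider span than that of 82.8% of the 4545 genes with at least 5 FPKM in all 8 groups, whose median span was 4.46-fold.

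CCT-eta had the flattest profile. Its level was 166.4 FPKM in IIIM male heads, 174.2 FPKM in YM male heads, 126.3 FPKM in the CS female head library and 134.3 FPKM in the CSaY one. In gonads it was 167.0 FPKM in IIIM testes, 178.2 FPKM in YM testes, 294.3 FPKM in the CS ovary library and 335.8 FPKM in the CSaY one. In these 8 groups testes and male heads overlapped, both ovaries lay above them, and both female heads lay below. In the pooled columns the female head value (154.9 FPKM) was above the male one (146.5 FPKM). The span was 2.66-fold, and 20.1% of the 4545 genes had a smaller one.

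CCT-zeta, which in mammals has a testis-specific paralog, lay between the others in span. Its level was 143.5 FPKM in IIIM male heads, 150.1 FPKM in YM male heads, 102.2 FPKM in the CS female head library and 135.4 FPKM in the CSaY one. In gonads it was 239.8 FPKM in IIIM testes, 246.6 FPKM in YM testes, 519.8 FPKM in the CS ovary library and 475.7 FPKM in the CSaY one. In these 8 groups ovaries were highest, then testes, then male heads, then female heads, with no overlap between tissues. In the pooled columns the female head value (144.7 FPKM) was above the male one (126.5 FPKM). The CSaY female head library lay closer to the male heads than to the CS female head library, and the gap of 1.33-fold between both female head libraries was the widest strain gap of any of the 3 genes. Of the 618 genes under 0.3 FPKM in both of these libraries, 187 had a CSaY to CS ratio of 1.2, so a single read weighed more in the CSaY library. Over all 9457 tested genes the median log2 difference of CSaY minus CS female heads was -0.004, against 0.40 for CCT-zeta. The part of read weight in the gap was not tested. The span of CCT-zeta was 5.09-fold, with 58.0% of the 4545 genes below it.

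**Figure D1:**
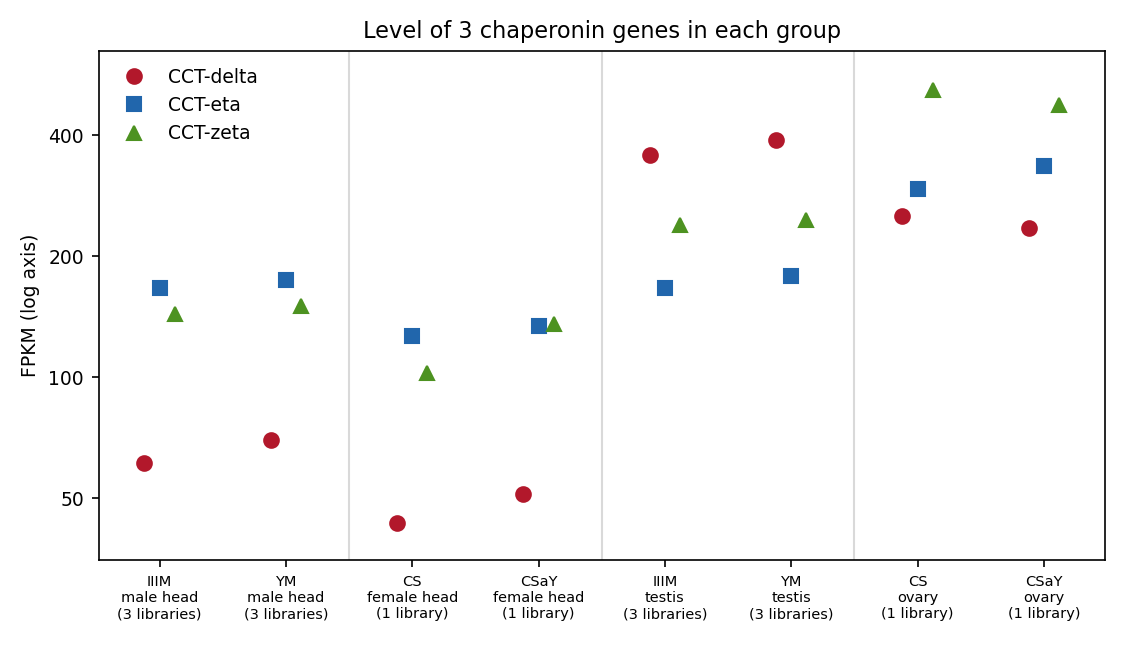
FPKM of CCT-delta (circles), CCT-eta (squares) and CCT-zeta (triangles) in the 8 groups, on a log axis; each symbol is 1 deposited value, made from 3 libraries in male groups and 1 in female groups. CCT-delta lies between 43.4 and 69.6 FPKM in heads and at 357.4 and 389.9 FPKM in testes, while CCT-eta lies between 166.4 and 178.2 FPKM in male heads and testes alike.

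The ratios between the subunit transcripts were set side by side within each group, where a scale factor common to all genes of a column cancels. A factor particular to a gene, such as the transcript length used, does not cancel within a group. The side of 1 on which a ratio falls, and the shares below, therefore rest on FPKM being comparable between genes. If such a factor is the same in all groups, it cancels in the change of a ratio between tissues. CCT-delta stood at 0.368 and 0.400 times CCT-eta in IIIM and YM male heads, and at 0.344 and 0.380 times in CS and CSaY female heads. In ovaries it stood at 0.859 times CCT-eta in CS and 0.702 times in CSaY. In testes the ratio was 2.14 in IIIM and 2.19 in YM males. CCT-delta was thus below CCT-eta in 6 groups and above it in both testes. The ratio (geometric mean of both strains) was 5.64-fold higher in testes than in male heads and 2.79-fold higher in testes than in ovaries, beside a strain gap of at most 1.22-fold within any tissue. Taken within a strain, the excess of testes over ovaries was 2.49-fold for CS and 3.12-fold for CSaY, and that over male heads was 5.82-fold and 5.47-fold. With 1 value per group these ratios have no test.

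Against CCT-zeta, CCT-delta showed the same reversal in testes. It stood at 0.426 and 0.464 times CCT-zeta in IIIM and YM male heads, at 0.425 and 0.377 times in CS and CSaY female heads, and at 0.486 and 0.496 times in CS and CSaY ovaries. In IIIM and YM testes it stood at 1.49 and 1.58 times CCT-zeta. The ratio thus set testes apart from the other 3 tissues. It was 3.13-fold higher in testes than in ovaries and 3.45-fold higher than in male heads. Ovaries and male heads differed in it by 1.10-fold, beside a strain gap of up to 1.09-fold.

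The ratio of CCT-zeta to CCT-eta varied least of the 3 and separated gonads from heads. It was 0.863 and 0.862 in IIIM and YM male heads, and 0.809 and 1.01 in CS and CSaY female heads. It was 1.44 and 1.38 in IIIM and YM testes, and 1.77 and 1.42 in CS and CSaY ovaries. All 4 gonad groups lay above all 4 head groups. Testes and ovaries differed by 1.12-fold in this ratio, less than the 1.25-fold gap between the ovary libraries. Over the 8 groups the ratio spanned 2.18-fold, against 6.37-fold for CCT-delta over CCT-eta and 4.19-fold for CCT-delta over CCT-zeta.

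**Figure D2:**
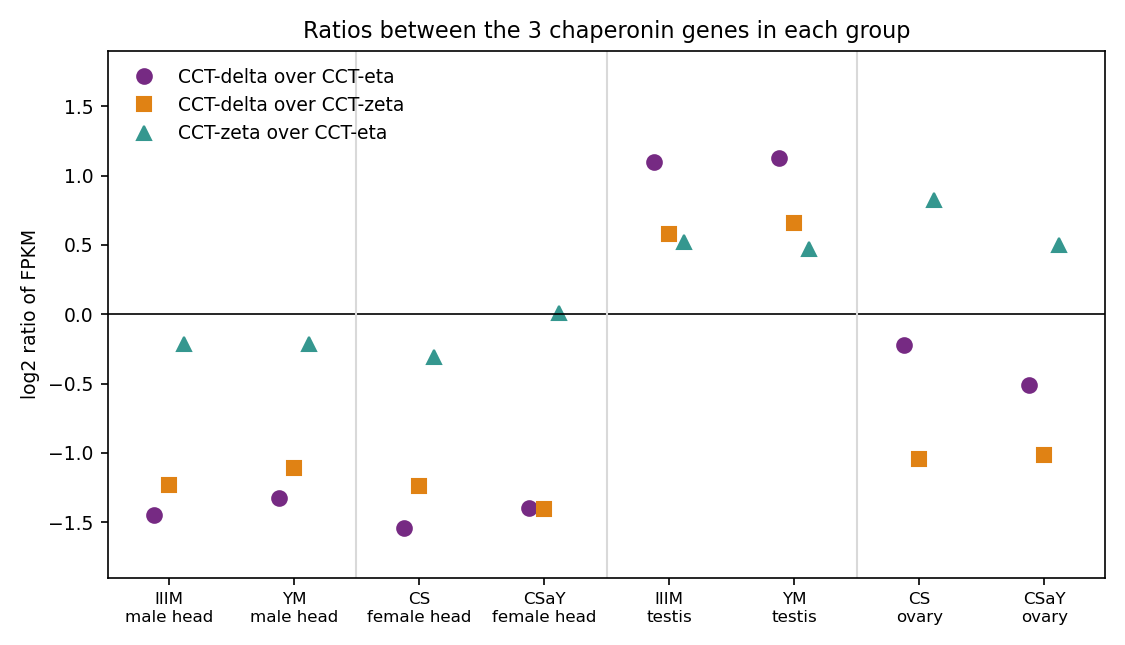
Log2 ratio of FPKM for the 3 pairs of genes (circles, CCT-delta over CCT-eta; squares, CCT-delta over CCT-zeta; triangles, CCT-zeta over CCT-eta) in the 8 groups; 0 marks equal FPKM. Both ratios with CCT-delta on top are above 0 in testes (0.58 to 1.13) and below 0 in heads and ovaries (-1.54 to -0.22).

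As shares of the summed FPKM of the 3 genes, CCT-delta made up 15.9 to 17.7% in the 4 head groups, 22.5 and 23.7% in ovaries, and 46.8 and 47.9% in testes. CCT-eta made up 41.9 to 46.5% in heads, 27.6 and 32.1% in ovaries and 21.9% in both testes. CCT-zeta made up 37.6 to 42.2% in heads, 45.4 and 48.7% in ovaries, and 30.3 and 31.4% in testes. The sum itself was 371.1 and 393.8 FPKM in IIIM and YM male heads, 271.9 and 320.8 FPKM in CS and CSaY female heads, 764.2 and 814.8 FPKM in IIIM and YM testes, and 1067 and 1047 FPKM in CS and CSaY ovaries. The summed FPKM was thus higher in gonads of both sexes than in heads, with ovaries above testes, in both strains. The 3 genes did not share this equally. From male heads to testes CCT-delta rose 5.84-fold and 5.60-fold in IIIM and YM males, while CCT-eta changed 1.004-fold and 1.02-fold. The median gene with at least 5 FPKM in either tissue was itself 1.72-fold and 1.74-fold higher in CS and CSaY ovaries than in female heads (as a fold of FPKM + 1).

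**Figure D3:**
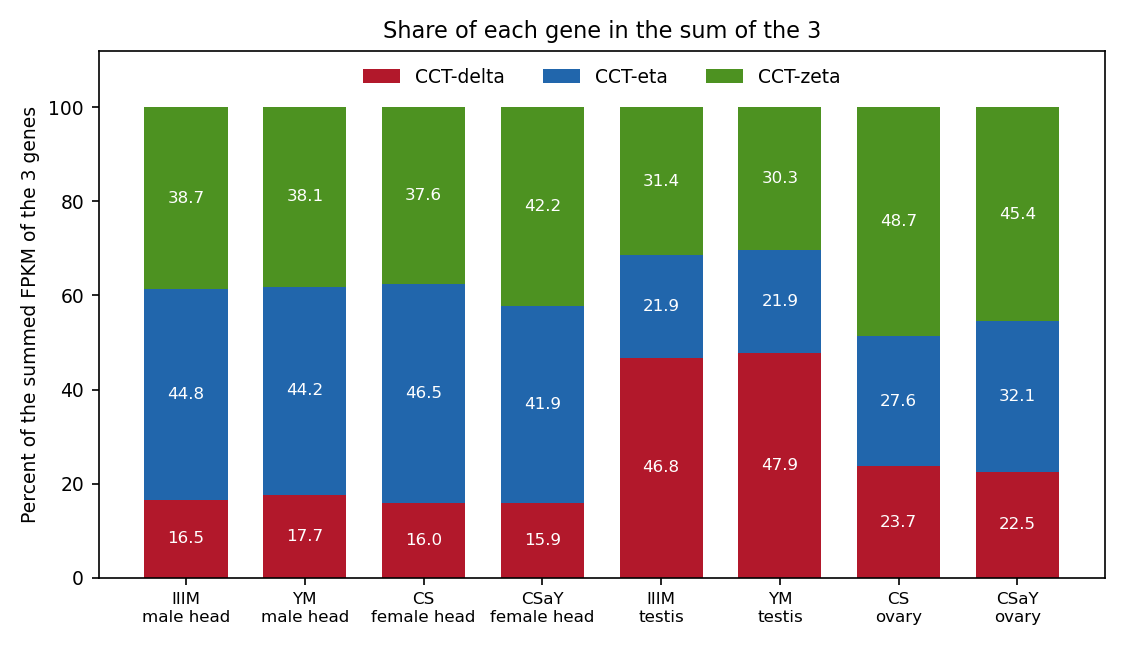
Percent of the summed FPKM of the 3 genes taken by CCT-delta (bottom), CCT-eta (middle) and CCT-zeta (top) in the 8 groups. CCT-delta takes 46.8 and 47.9% in testes and at most 23.7% elsewhere.

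Between testis and ovary the authors' test called CCT-eta and CCT-zeta, both higher in ovary, and did not call CCT-delta. This test used columns that pool both strains, 6 testis and 2 ovary libraries. CCT-eta stood at 483.1 FPKM in the pooled ovary and 175.6 FPKM in the pooled testis column, and CCT-zeta at 661.7 and 254.0 FPKM (q = 0.000102 for both in the authors' deposited table). On the log2 scale of FPKM + 1 the difference of testis minus ovary was -1.45 for CCT-eta and -1.38 for CCT-zeta. For CCT-delta it was 0.04, with 341.3 and 351.4 FPKM (q = 0.857 in the authors' deposited table). Calls were the rule in this comparison. Of the 10586 tested genes 73.6% were called, 41.3% higher in ovary and 32.4% higher in testis, so 2 of 3 members called is close to that background. The median log2 difference over all tested genes was -0.07, and 1.25% of tested genes changed less than CCT-delta in size. This small change belongs to the pooled columns. By the strain columns CCT-delta was 1.41-fold and 1.65-fold higher in testis, as given below. Among the 807 tested genes with a mean FPKM within 2-fold of that of CCT-delta, the smallest change called was 1.37-fold (as a fold of FPKM + 1).

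The size of these differences depends on the kind of column. The pooled ovary column ran at 1.26 times the mean of its strain columns (median over genes), and the pooled testis column at 1.01 times. In ovary each member rose by more than that median. The pooled value and the strain mean were 341.3 and 244.2 FPKM for CCT-delta, 483.1 and 315.1 FPKM for CCT-eta, and 661.7 and 497.8 FPKM for CCT-zeta. The reason was not tested. By the strain columns CCT-eta was 1.76-fold higher in CS ovary than in IIIM testis and 1.88-fold higher in CSaY ovary than in YM testis. CCT-zeta was 2.17-fold and 1.93-fold higher in ovary in the same pairs. CCT-delta was 1.41-fold and 1.65-fold higher in testis. The median gene with at least 5 FPKM in either tissue was 1.11-fold higher in CS ovary and 1.12-fold higher in CSaY ovary in these columns. Folds of the median gene, here and below, are of FPKM + 1, unlike those of the members. The authors' q belongs to the pooled columns alone.

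Gonads were not tested against heads by the authors, so these folds are descriptions. CCT-delta was 5.84-fold higher in testis than in male head in IIIM males and 5.60-fold higher in YM males. CCT-zeta was 1.67-fold and 1.64-fold higher, and CCT-eta 1.004-fold and 1.02-fold. The median gene was 1.07-fold and 1.10-fold higher in testis, so CCT-eta lay near it. From female head to ovary all 3 genes were higher in ovary in both strains. CCT-delta was 5.82-fold higher in CS and 4.62-fold in CSaY, CCT-zeta 5.09-fold and 3.51-fold, and CCT-eta 2.33-fold and 2.50-fold, with the median gene at 1.72-fold and 1.74-fold.

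None of the 3 genes was called between the strains. In testes, where 13.0% of 10275 tested genes were called, CCT-delta was 1.09-fold, CCT-eta 1.07-fold and CCT-zeta 1.03-fold higher in YM than in IIIM males (q = 0.760, 0.823 and 0.934 in the authors' deposited table). CCT-zeta lies on chromosome III, the chromosome that carries the male determiner in strain CS, and had the smallest of these changes. Whether its location bears on this was not tested. In male heads, where 9.25% of 9441 genes were called, they were 1.14-fold, 1.05-fold and 1.05-fold higher in YM males (q = 0.631, 0.899 and 0.903 in the authors' deposited table). Among genes with a mean FPKM within 2-fold of a member's, the smallest change called (as a fold of FPKM + 1) was 1.41-fold in testes for each member. In male heads it was 1.44-fold for CCT-delta and 1.42-fold for CCT-eta and CCT-zeta. The members' own changes were smaller than these values, which describe the calls made and are not a limit of detection.

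Between the female libraries the authors' test compares 1 library with 1 library, not the strains. It called 0.772% of 9457 genes in heads and 0.358% of 7831 genes in ovaries, and no member (q = 0.998 for each member in heads and 0.999 in ovaries in the authors' deposited table). CCT-zeta was 1.33-fold, CCT-delta 1.18-fold and CCT-eta 1.06-fold higher in the CSaY female head library. In ovaries CCT-eta was 1.14-fold higher in the CSaY library, while CCT-zeta was 1.09-fold and CCT-delta 1.07-fold higher in the CS library. The smallest change called at the level of CCT-eta (as a fold of FPKM + 1) was 3.14-fold in female heads and 2.30-fold in ovaries. In ovaries 3 of 665 genes were called at that level, and 0 of 346 at the level of CCT-zeta.

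Male and female heads were not called different for any member either, where 13.3% of 9679 tested genes were called over 6 male and 2 female libraries. CCT-delta stood at 58.4 FPKM in the pooled female and 50.2 FPKM in the pooled male head column (q = 0.709 in the authors' deposited table). CCT-eta stood at 154.9 and 146.5 FPKM (q = 0.917) and CCT-zeta at 144.7 and 126.5 FPKM (q = 0.740) in the same table. The side on which these values fall turns with the kind of column. By the strain columns all 3 were higher in male heads, CCT-delta 1.41-fold in CS and 1.36-fold in CSaY, CCT-eta 1.32-fold and 1.30-fold, and CCT-zeta 1.40-fold and 1.11-fold, while the median gene was 1.26-fold and 1.30-fold higher in male heads. The pooled female head column ran at 1.19 times and the pooled male head column at 0.875 times the mean of their strain columns.

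**Figure D4:**
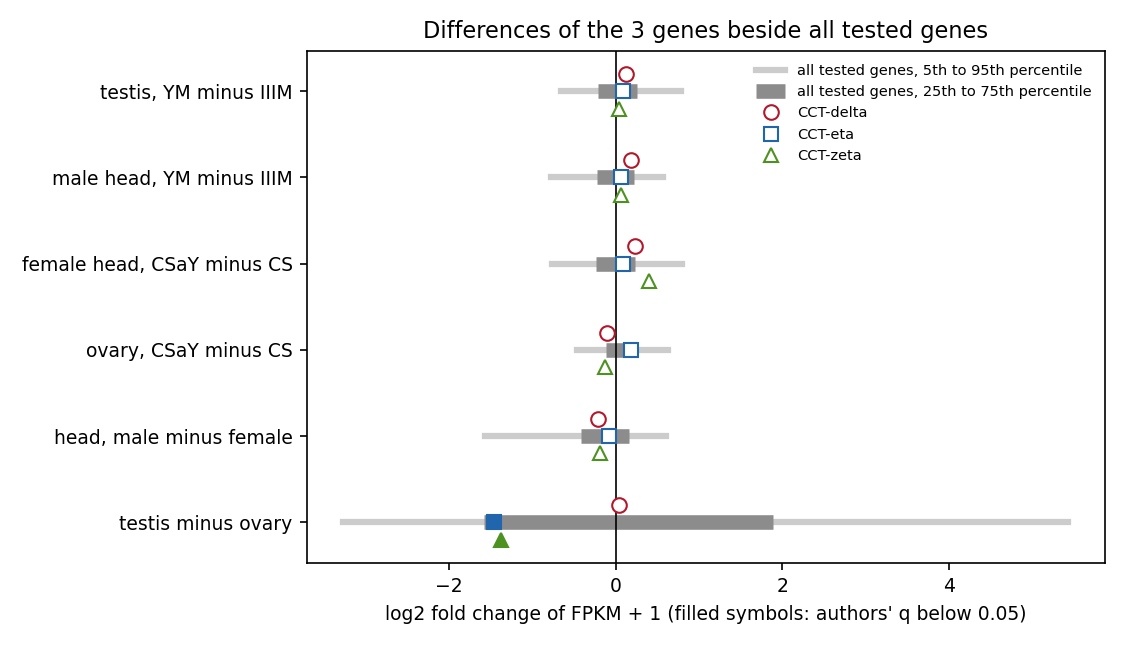
Log2 fold change of FPKM + 1 of the 3 genes in the 6 comparisons of the authors' deposited table; grey bars span the 5th to 95th and the 25th to 75th percentile of all tested genes, and filled symbols have q below 0.05. CCT-eta (-1.45) and CCT-zeta (-1.38) in testis minus ovary are the only filled symbols.

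The 3 profiles resembled each other unequally. Over the 8 groups Pearson's r of log2(FPKM + 1) was 0.938 between CCT-eta and CCT-zeta, 0.795 between CCT-delta and CCT-zeta and 0.597 between CCT-delta and CCT-eta. These coefficients are descriptions over 8 columns that fall into 4 tissues and share the scale of each column. Among 4544 other genes with at least 5 FPKM in every group, CCT-zeta ranked 491st in likeness to CCT-eta, and CCT-delta ranked 2185th. In likeness to CCT-delta, CCT-zeta ranked 1140th and CCT-eta 1680th. By Spearman's rho many of the same genes tie, so the percent of genes lying below is given in place of a rank. In likeness to CCT-eta it was 97.2% for CCT-zeta and 71.7% for CCT-delta, against 89.2% and 51.9% by Pearson's r. In likeness to CCT-delta it was 83.7% for CCT-zeta and 68.2% for CCT-eta, against 74.9% and 63.0%. CCT-zeta was thus again nearer than CCT-delta to CCT-eta, and the positions themselves depend on the measure.

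The genes most like CCT-delta by this measure were LOC101895151, LOC101901059, LOC101896435, LOC101887487 and LOC101893695 (r from 0.997 to 0.999). LOC101887487 ran from 39.0 FPKM in the CS female head library to 221.1 FPKM in YM testes, with testes above ovaries and ovaries above heads, while its male and female heads overlapped. Those most like CCT-eta were LOC101893437, LOC101897469, LOC101896579, LOC101892567 and LOC101891703 (r from 0.988 to 0.992). LOC101897469 ran from 36.9 FPKM in the CS female head library to 311.0 FPKM in the CSaY ovary library. Those most like CCT-zeta were LOC101900950, LOC101887280, LOC101890123, LOC101897725 and LOC101896416 (r from 0.995 to 0.998). LOC101897725 ran from 54.7 FPKM in the CS female head library to 307.2 FPKM in the CS ovary library. None of the 15 has a symbol other than its ID in the table of names used here.

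Of the folding pathway, the lists of prefoldin subunits, phosducin-like proteins, mitochondrial chaperonins, tubulins and actins had 0 genes with a matching symbol, and the CCT list had 3, the members themselves. Among the 52 genes with a symbol, 2 other chaperone genes were found and are named after their values were seen. HSP70, a chaperone that binds unfolded proteins and can pass them to the chaperonin, stood at 2138 and 2161 FPKM in IIIM and YM male heads, 1428 and 1862 FPKM in CS and CSaY female heads, 1167 and 1653 FPKM in IIIM and YM testes, and 3077 and 3154 FPKM in CS and CSaY ovaries. Like CCT-eta and CCT-zeta it was called higher in ovary than in testis (2.52-fold in the pooled columns, q = 0.00626 in the authors' deposited table). The small heat shock gene hsp20, whose family keeps unfolded proteins from aggregating, was called on the other side, 6.74-fold higher in testis (10.8 FPKM in ovary, 72.6 FPKM in testis, q = 0.000102 in the authors' deposited table). How reads were divided among related heat shock genes is not stated, so the levels of single copies are uncertain. Neither gene was called in the other 5 comparisons, where q was at least 0.165 in the authors' deposited table.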

How the data were processed

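PolyA RNA was sequenced from 16 TruSeq libraries, per the labels' protocols. Cufflinks 2.2.1, Bowtie2 2.1.0.0, TopHat2 2.0.8b and CASAVA 1.8.2 are listed in the submitters' processing notes. What each tool did, the genome build and any use of strand were not given in the sources. The FPKM values were deposited by the authors as 1 value per strain, sex and tissue, with 4 further columns that pool strains. The authors' q value (an adjusted p-value, the adjustment not being stated) was used as deposited, with a call below 0.05. The authors' test statistic, a score of unstated scale, was not used. Neither read counts nor values of individual male libraries were analysed here, so depth and replicate spread are unknown.

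Symbols were taken from the RefSeq gene table of the aabys assembly, matched by gene ID (12168 of 14631 IDs and all 3 members matched), and no coordinate was taken from it. Sequences of the members were not used here. Ratios and folds of the members use the FPKM values. Log2 changes, the folds of the median gene between tissues or sexes, and the smallest changes called use FPKM + 1. Likeness is Pearson's r over the 8 strain columns, and its computation was tested on simulated data. The rule for named genes takes the 3 members, matched genes of the folding lists and the 5 genes most like each member. Members and lists were chosen with earlier results of these data known. Alternatives were a pseudocount of 0.1, q below 0.01, median-centred changes, strain in place of pooled columns, each strain alone (added after the data were seen), and other measures of likeness. Python 3.11.15, numpy 2.4.6, pandas 2.3.3 and matplotlib 3.10.9 were used.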

Additional observations from a re-analysis of the deposited data

How the results depend on the processing

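The calls of the 3 genes were the same at q below 0.01, and a pseudocount of 0.1 left every direction as it was. The sex difference in heads, not called for any of the 3 genes, turned from female to male with the strain columns (log2 0.46 for CCT-delta, 0.38 for CCT-eta and 0.30 for CCT-zeta), with CS columns alone (0.48, 0.39 and 0.49) and with CSaY columns alone (0.44, 0.37 and 0.15), and for CCT-eta also after subtracting the median of all tested genes (0.024). The testis and ovary differences kept their directions under these settings. The pooled columns moved the log2 ratio of CCT-delta over CCT-eta by more than the strain gap to -1.55 in male heads and 1.001 in testes. They moved CCT-delta over CCT-zeta to -1.33 in male heads, 0.47 in testes and -0.96 in ovaries. In male heads CCT-zeta over CCT-eta went only from -0.214 to -0.212, beside a strain gap of 0.0016. CCT-zeta over CCT-eta in female heads had the other sign in the CSaY library alone (0.012). For these the cause was not tested. With Spearman's rho and at least 1 FPKM in every group, 0 of the 5 genes most like each member were shared with the main list, and rho was 1 for several genes. No paired analysis was possible because each group has 1 deposited value, and for the same reason no replicate could be left out. The settings for the folding lists were not run, since those lists had no matched gene beside the members.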
